A study of Mus musculus with 6 samples.

Results

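The late cornified envelope 3 (Lce3) genes were followed in the regenerating corneal epithelium of diabetic and control mice. The family has 6 named genes in the mouse, Lce3a to Lce3f, and the members were taken by gene name from a table of 14968 protein-coding genes. Lce3a, Lce3b, Lce3c, Lce3e and Lce3f were measured, and Lce3d was not analysed here. The family was chosen from the measured difference between diabetic and control libraries, so its values in that comparison are given as a description and without a p-value.

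All libraries came from male C57BL/6 mice whose central corneal epithelium had been debrided, and both groups therefore carried a healing wound. The 3 diabetic libraries (C-DM-W) came from mice 16 weeks after streptozotocin (STZ), which kills pancreatic beta cells and serves as a model of type 1 diabetes, and the 3 control libraries (C-Ctrl-W) from counterparts of the same strain and age without STZ. Limbus and part of the regenerating central epithelium were collected a day after debridement, and each library was made from the pooled epithelium of several mice. The spread between libraries is therefore a spread between pools, and fewer cells expressing a gene and less RNA per cell cannot be told apart. Expression is given in FPKM, fragments scaled to transcript length and to the mapped fragments of the library, as deposited by the authors.

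The cornified envelope is the layer of cross-linked protein that replaces the plasma membrane of dying keratinocytes. Its precursors, among them involucrin, loricrin, the small proline-rich (SPRR) proteins and the late cornified envelope (LCE) proteins, are joined by transglutaminases, and the LCE proteins are added late. Most of these genes lie together in the epidermal differentiation complex. In human skin the LCE3 genes are low in resting epidermis and are induced after disruption of the barrier and in psoriatic plaques, and a common human deletion of LCE3B and LCE3C is a risk factor for psoriasis. The corneal epithelium is stratified but does not normally cornify, and it keeps nucleated cells at its surface.

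In the mouse genome (GRCm38, GENCODE M21) the 6 genes lay in 68.1 kb of chromosome 3, from 92925287 to 92993426. Lce3a occupied positions 92925287 to 92926230 on the minus strand. On the plus strand followed Lce3b (92932979 to 92934097), Lce3c (92944486 to 92945733), Lce3d (92957390 to 92958505), Lce3e (92967061 to 92968281) and Lce3f (92992226 to 92993426). Each gene had 1 annotated transcript of 2 exons, a short first exon of 27 to 50 bases without coding sequence and a second exon that held the whole coding sequence of 294 bases. No other annotated gene overlapped any of them.

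The promoters, compared over their whole length, differed far more between the genes than the coding sequence did. Shorter promoter windows around the transcription start are shown here, and identity was not computed for the windows alone. They are RefSeq promoters (GRCm38.p6), cut to 110 bases before and 20 bases after the RefSeq start and written in the direction of transcription. Their positions were chr3:92926211-92926340 (-) for Lce3a, chr3:92932869-92932998 (+) for Lce3b, chr3:92944376-92944505 (+) for Lce3c, chr3:92957280-92957409 (+) for Lce3d, chr3:92966951-92967080 (+) for Lce3e and chr3:92992107-92992236 (+) for Lce3f. The RefSeq start was that of GENCODE for 5 of the genes and lay 9 bases before it for Lce3f, and distances are counted from the RefSeq start. The capitals mark the runs GATAAAA and TTGTGAAA.
Lce3a: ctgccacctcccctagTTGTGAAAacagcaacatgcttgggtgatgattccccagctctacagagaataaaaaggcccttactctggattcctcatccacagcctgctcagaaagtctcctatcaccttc
Lce3b: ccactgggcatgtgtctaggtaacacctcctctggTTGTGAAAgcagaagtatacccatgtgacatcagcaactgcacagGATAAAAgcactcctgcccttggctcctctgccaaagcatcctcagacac
Lce3c: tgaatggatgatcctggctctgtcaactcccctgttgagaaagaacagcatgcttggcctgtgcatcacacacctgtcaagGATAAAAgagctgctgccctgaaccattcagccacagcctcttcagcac
Lce3d: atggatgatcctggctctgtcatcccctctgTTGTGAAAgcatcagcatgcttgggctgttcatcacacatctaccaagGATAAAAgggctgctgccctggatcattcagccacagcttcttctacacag
Lce3e: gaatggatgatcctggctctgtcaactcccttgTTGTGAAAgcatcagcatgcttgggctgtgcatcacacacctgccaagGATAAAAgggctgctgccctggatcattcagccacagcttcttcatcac
Lce3f: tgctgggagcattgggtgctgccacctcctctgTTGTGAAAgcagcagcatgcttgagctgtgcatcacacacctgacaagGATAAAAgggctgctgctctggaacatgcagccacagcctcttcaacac

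GATAAAA, a run that resembles a TATA box, was found in 5 of 6 promoters and began 29 to 31 bases before the start in Lce3b, Lce3c, Lce3d, Lce3e and Lce3f. No exact match was found in Lce3a, whose printed window holds aataaaa, a run that differs from GATAAAA in its first letter. On either strand GATAAAA was present in 3.4% of 32851 mouse promoters of 300 bases. TTGTGAAA was found in 5 of 6 promoters, all but Lce3c, at 94 bases before the start in Lce3a and at 75 to 79 bases before it in the others. It was present in 1.2% of all promoters. Both runs were chosen after the sequences had been seen. Among motifs listed earlier and searched on both strands of the whole 300 bases, TATAAA was found in Lce3e alone (13.6% of all promoters), CACCC, a core of KLF sites, in Lce3a and Lce3f (57.5%), and TTGCNNAA, a C/EBP pattern, in Lce3f (10.8%). The AP-1 pattern TGANTCA (7.8% of all promoters) and the GRHL pattern AACCGGTT (0.1%) were found in 0 of 6. No TATAAA match overlapped GATAAAA. A match is a description of letters and not of a bound site.

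Over the 15 pairs, coding identity lay between 94.6% (Lce3a and Lce3b) and 99.3% (Lce3d and Lce3f). Identity of the 300-base promoters lay between 37.5% (Lce3a and Lce3b) and 83.1% (Lce3d and Lce3e), and the promoter of Lce3a was 37.5% to 44.9% identical to the others.

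**Figure D1:**
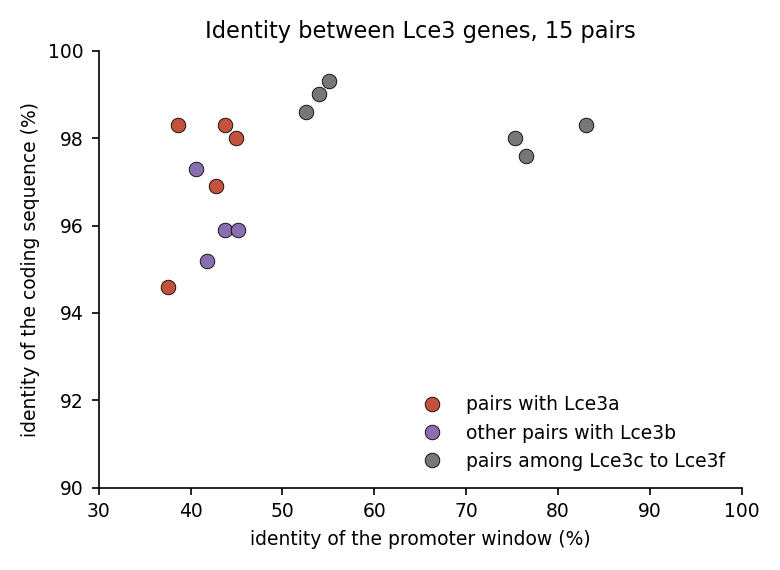
Identity of the coding sequence (vertical axis, %) against identity of the 300-base promoter (horizontal axis, %, neither axis starting at 0) for the 15 pairs of Lce3 genes, 1 point a pair. All pairs keep at least 94.6% coding identity, while promoter identity reaches 75.3% or more only for the 3 pairs among Lce3c, Lce3d and Lce3e.

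Because of this closeness the members were not equally well separated by sequence. Of all stretches of 100 bases in the transcript, 0 of 450 were shared with another transcript for Lce3a and 5 of 463 (1.1%) for Lce3b. The share was 24.1% for Lce3c, 28.3% for Lce3d, 36.4% for Lce3e and 43.0% for Lce3f. With stretches of 50 bases it was 19.0% for Lce3a, 12.1% for Lce3b, 35.7% for Lce3c, 43.7% for Lce3e and 48.0% for Lce3f. Every shared stretch was shared with other Lce3 genes only, and most of those of 100 bases lay in the coding sequence (198 of 220 in Lce3f and 107 of 113 in Lce3c). The read length and the treatment of reads that fit several genes are not given in the sources used here. The values of Lce3c, Lce3e and Lce3f are thus uncertain in how they divide reads among themselves and Lce3d. Lce3a shared the smallest part at 100 bases and Lce3b at 50 bases.

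Lce3a had the highest FPKM of the 5 measured genes in every library. Its FPKM was 26.1, 31.4 and 21.0 in control replicates 1, 2 and 3 and 54.0, 40.8 and 69.7 in diabetic replicates 1, 2 and 3. The lowest diabetic library stood 1.30 times above the highest control library, so the groups did not overlap. The mean was 26.2 ± 5.22 (SD, n = 3) in control and 54.8 ± 14.5 (SD, n = 3) in diabetic epithelium, a ratio of 2.10. On log2(FPKM + 1) the difference was 1.02 (SE 0.21). In mean level Lce3a ranked 1147 of 14968 genes, with 92.3% of genes lower.

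Lce3c came next in level. Its FPKM was 0.793, 1.05 and 1.07 in the control libraries and 1.30, 4.65 and 9.85 in the diabetic libraries. Control libraries lay close together, while the diabetic libraries differed 7.60-fold from lowest to highest, and diabetic replicate 1 was only 1.21 times above the highest control. The means were 0.972 ± 0.155 and 5.26 ± 4.31 (SD, n = 3 each), and the log2 difference was 1.40 (SE 0.48). It had the largest SE of the 4 genes fitted. Its difference was above that of Lce3b here, but below it with a pseudocount of 0.1 (1.92 against 3.36) or 0.5 (1.64 against 1.73), on TPM (1.78 against 2.16) and without diabetic replicate 2 (1.34 against 1.37). Without diabetic replicate 3 the difference was 0.87, and without diabetic replicate 1 it was 1.99.

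Lce3f had an FPKM of 0.414, 0.884 and 0.667 in control and of 1.04, 1.92 and 2.42 in diabetic libraries. The groups did not overlap, but the lowest diabetic library was only 1.17 times above the highest control. The means were 0.655 ± 0.235 and 1.79 ± 0.701 (SD, n = 3 each), with a log2 difference of 0.73 (SE 0.20).

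Lce3b was near 0 in control epithelium. It was listed at 0 in control replicates 1 and 2 and at 0.137 FPKM in control replicate 3, against 1.05, 0.736 and 2.56 FPKM in the diabetic libraries. The lowest diabetic library was 5.38 times above the highest control, the widest gap of the family on this ratio. The log2 difference was 1.16 (SE 0.25), and since it is taken after adding 1 FPKM it understates changes of a gene this low. Lce3b passed the expression filter (a mean of at least 0.5 FPKM in 1 or both groups) through the diabetic libraries alone.

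Lce3e was near 0 in both groups. It was listed at 0, 0 and 0.254 FPKM in control against at 0.255, 0.351 and 0 FPKM in diabetic libraries. The groups overlapped, 12.2% of genes had a lower mean, and the gene fell below the expression filter. Its difference on log2(FPKM + 1) was 0.14. Depth per library is unknown for these FPKM values, so a listed 0 is not shown to be an absence of transcript.

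**Figure D2:**
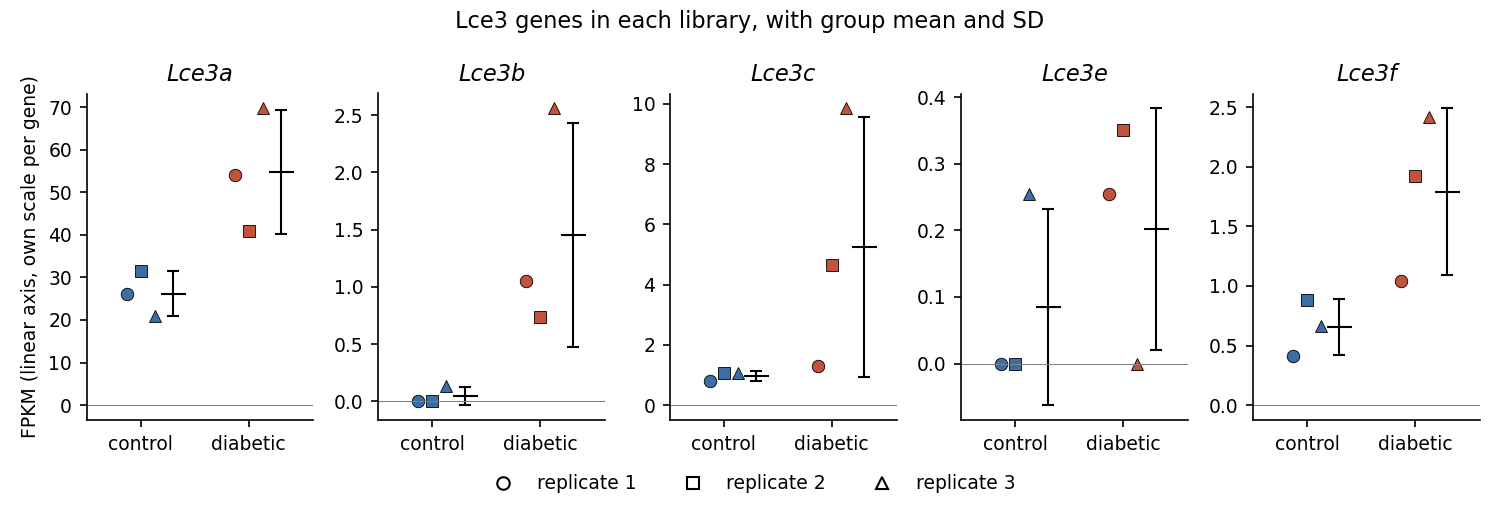
FPKM of each measured Lce3 gene (linear vertical axis with a scale of its own per gene) in the 3 control (blue) and 3 diabetic (red) libraries, with symbols for the replicate and a bar for the group mean ± SD. Lce3a, Lce3b, Lce3c and Lce3f are higher in every diabetic than in every control library, and Lce3e overlaps between 0 and 0.351 FPKM.

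Summed over the 5 genes, FPKM was 27.3, 33.3 and 23.1 in control and 57.6, 48.5 and 84.6 in diabetic libraries. The means were 27.9 ± 5.15 and 63.5 ± 18.8 (SD, n = 3 each), a ratio of 2.28. The sum is little affected by how reads are divided among these 5 genes. It leaves out Lce3d, so reads assigned to that gene would be missing from it. Lce3a made up 95.6%, 94.2% and 90.8% of it in control and 93.7%, 84.2% and 82.5% in diabetic libraries. In diabetic replicates 2 and 3, but not in diabetic replicate 1, the share of Lce3a was below that of every control library.

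The minor members were also set against Lce3a within each library, which removes the scaling of the library. Lce3c was 3.04%, 3.34% and 5.12% of Lce3a in control and 2.4%, 11.4% and 14.1% in diabetic libraries, so that diabetic replicate 1 lay below the controls and the other two diabetic libraries above them. Lce3f was 1.58%, 2.81% and 3.18% of Lce3a in control and 1.92%, 4.71% and 3.47% in diabetic libraries, and these ranges overlapped. Lce3b was 0%, 0% and 0.653% of Lce3a in control and 1.94%, 1.80% and 3.68% in diabetic libraries, without overlap, but this ratio was bound up with the choice of the family and rests on 2 controls listed at 0. No difference between members is read from these ratios.

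By mean FPKM over all 6 libraries, which is per length, the order was Lce3a, Lce3c, Lce3f, Lce3b and Lce3e. Lce3a exceeded Lce3c by 3.58 ± 0.71 on log2(FPKM + 1) (mean ± SD over 6 libraries), in 6 of 6 libraries, and Lce3c exceeded Lce3f by 0.59 ± 0.60, in 6 of 6. For each of these pairs a two-sided exact sign-flip permutation test gave p = 0.0312, the smallest that 6 libraries allow, and an adjusted p of 0.0625 over the 4 neighbouring pairs. Lce3f and Lce3b differed by 0.44 ± 0.40 (4 of 6 libraries, exact p = 0.125, adjusted 0.1667) and Lce3b and Lce3e by 0.46 ± 0.74 (3 of 6, exact p = 0.25, adjusted 0.25). No neighbouring pair passed 0.05 after adjustment, and pairs further apart in the order were not tested. The pairs were taken from the order of the means in these same libraries, diabetic ones included, so the p-values are a description. The gap between Lce3c and Lce3f ran from 0.12 to 1.66 over the libraries. In control libraries alone the mean of Lce3e (0.0848 FPKM) was above that of Lce3b (0.0456 FPKM), the reverse of the order over all libraries.

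Diabetic and control libraries were compared over all 12149 genes past the filter with limma on log2(FPKM + 1). At an adjusted p under 0.05, 8 genes (0.0658%) were called in either direction, and 0 of the 4 Lce3 genes tested were among them, while 1399 genes (11.5%) had an unadjusted p under 0.05. The count was 66 without diabetic replicate 1, 1 without diabetic replicate 3, 3 without control replicate 1 and 2 without control replicate 3. At the thresholds of the study (a 1.5-fold change with an unadjusted p under 0.05), 149 genes (1.23%) were higher and 153 (1.26%) lower in diabetic libraries, and Lce3a, Lce3b, Lce3c and Lce3f were among the higher. All diabetic libraries exceeded all control libraries for 812 genes (6.68%), which include the same 4. Since this contrast chose the family, nothing is read from these counts. Without control replicate 1 the study's thresholds were met by 3 members, not Lce3c (log2 difference 1.34), and without diabetic replicate 3 by 3 members, not Lce3f (0.57). Without diabetic replicate 1, 1 member, Lce3c, passed the adjusted threshold.

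The median log2 difference of the 4 Lce3 genes past the filter was 1.09, against -0.04 over all genes. Since this contrast chose the family, nothing is read from that distance. Lce3b passed the filter through the diabetic libraries alone, and Lce3e (0.14) did not pass it. Without a filter the median of the 5 measured genes was 1.02. Diabetic replicate 3 had the highest value of the 4 genes in each case. Averaged over them and centred on the mean of the 6 libraries, log2(FPKM + 1) was -0.64, -0.42 and -0.56 in control and 0.09, 0.39 and 1.13 in diabetic libraries. The diabetic libraries were thus more spread than the control libraries.

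The other envelope precursors of the complex had smaller differences than the 4 Lce3 genes past the filter, in both directions. Lce3e, at 0.14, lay within their range. The contrast chose the Lce3 genes, so nothing is read from this comparison. The 15 other late cornified envelope genes looked for (Lce1 genes and Lce6a) were not analysed here. Of the small proline-rich genes, which encode cross-bridging precursors of the envelope, 9 of 16 were measured. Of these 2 had a positive and 7 a negative difference, and the median was -0.12. In the limma fit 0 passed the adjusted threshold, the study's thresholds or an unadjusted p under 0.05. The study's thresholds were met by 1 gene without control replicate 1 (Sprr2d), diabetic replicate 1 (Sprr2h) or diabetic replicate 2 (Sprr2j-ps). Sprr1a, the most abundant, had 241 ± 63.3 FPKM in control against 221 ± 51.6 FPKM in diabetic libraries (SD, n = 3 each), with a log2 difference of -0.12 (limma adjusted p = 0.868). Sprr2a1 and Sprr2a2 are close copies of each other and their values (-0.10 and -0.12) are uncertain in how reads were split.

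Of 13 further envelope precursors of the complex, 5 were measured, 3 passed the filter and 0 met either set of thresholds, with 1 (Ivl) at an unadjusted p under 0.05. Involucrin (Ivl), an early scaffold of the envelope, had 29.9, 29.5 and 23.8 FPKM in control against 30.9, 53.0 and 39.9 FPKM in diabetic libraries. Every diabetic library was above every control, by a small margin in diabetic replicate 1, a pattern shown by 6.68% of all genes. The log2 difference of 0.53 (SE 0.19) did not pass the limma test (adjusted p = 0.368). Without diabetic replicate 1, Ivl (higher) and Crct1 (lower) met the study's thresholds, and without control replicate 2 Crnn did. Crct1, a cysteine-rich gene beyond Lce3f, had 22.3 ± 3.06 FPKM in control against 16.6 ± 6.53 FPKM in diabetic libraries (-0.47, adjusted p = 0.558). Crnn, which encodes cornulin, had 0.794 ± 0.626 and 1.30 ± 0.353 FPKM (0.40, adjusted p = 0.555). Kprp, a keratinocyte proline-rich gene before Lce3a, had 0.430 and 0.491 FPKM and did not pass the filter.

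**Figure D3:**
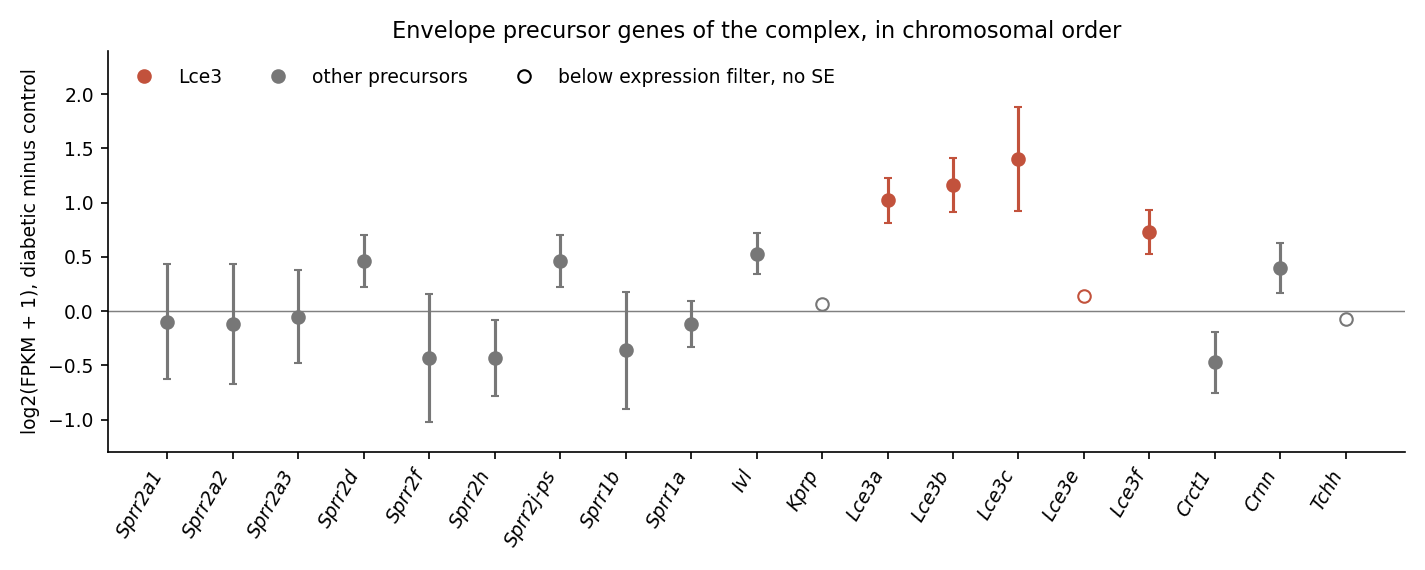
Difference in log2(FPKM + 1), diabetic minus control, for measured envelope precursor genes in their order on chromosome 3 (evenly spaced, not to distance), with bars for the SE of the limma fit, Lce3 genes in red and genes below the filter as open points without SE. Lce3a, Lce3b, Lce3c and Lce3f lie between 0.73 and 1.40, Lce3e at 0.14, and the other precursors between -0.47 and 0.53.

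Library by library the families stood in different orders. The 9 small proline-rich genes averaged -0.06, -0.30 and 0.48 in control and 0.65, -0.70 and -0.06 in diabetic libraries on the same centred scale. Their highest libraries were diabetic replicate 1 and control replicate 3, and their lowest was diabetic replicate 2. Crct1 was lowest in diabetic replicate 2 as well, at -0.93, where the Lce3 mean was 0.39. The difference between the families was not tested, since the contrast chose the Lce3 genes.

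**Figure D4:**
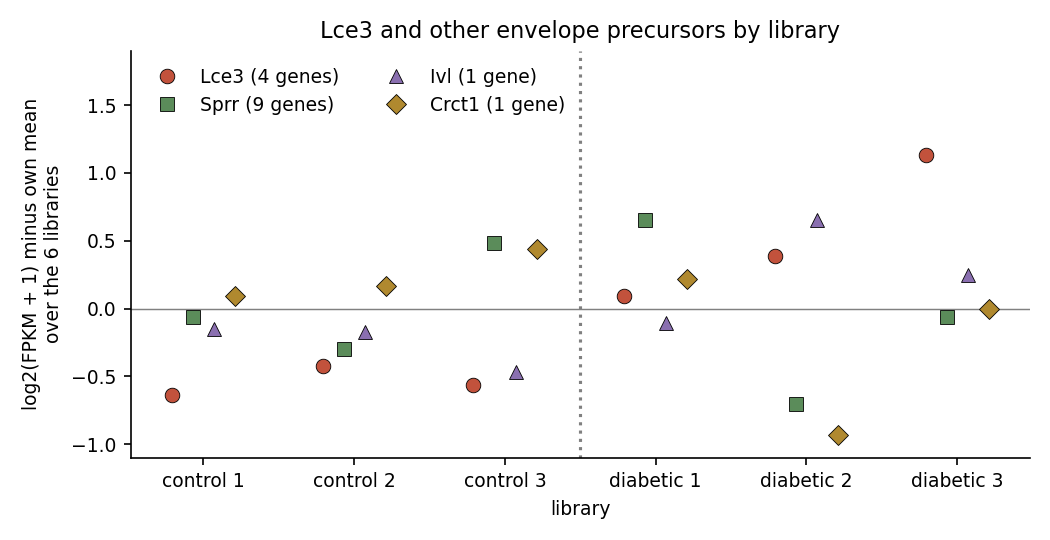
log2(FPKM + 1) minus the gene's own mean over the 6 libraries, averaged over 4 Lce3 genes and 9 small proline-rich genes and shown singly for Ivl and Crct1, 1 symbol per library. Lce3 lies below 0 in the 3 control libraries and reaches 1.13 in diabetic replicate 3, whereas the small proline-rich genes spread from -0.70 to 0.65 within the diabetic group.

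Of 22 genes for cross-linking and processing of the envelope, 17 passed the filter, 0 passed the adjusted threshold of the limma fit and 5 had an unadjusted p under 0.05, against 11.5% of all genes. Their median difference was -0.01, with 1 gene past the study's thresholds in each direction, against 1.23% of all genes higher and 1.26% lower. Asprv1, the aspartic protease that processes profilaggrin, had 1268 ± 95.5 FPKM in control against 1936 ± 263 FPKM in diabetic libraries (0.60, limma adjusted p = 0.11). Dmkn, a secreted protein of differentiated keratinocytes, had 11.4 ± 3.03 and 6.48 ± 0.859 FPKM (-0.71, adjusted p = 0.265). Asprv1 passed the adjusted threshold without diabetic replicate 1. It missed the study's thresholds without control replicate 3, diabetic replicate 2 or diabetic replicate 3, as did Dmkn without control replicate 3. Tgm1, the main membrane transglutaminase of the envelope, had 16.1 and 17.3 FPKM (0.08, adjusted p = 0.90). Klk5, a kallikrein protease of desquamation, was listed at 0 in all libraries.

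Among 26 barrier-stress and psoriasis-linked epithelial genes, 17 passed the filter and their median was -0.04, equal to that of all genes. In the limma fit 0 passed the adjusted threshold and 6 had an unadjusted p under 0.05 (11.5% of all genes). At the study's thresholds 2 were higher and 1 lower (1.23% and 1.26% of all genes). Lcn2, the antibacterial siderophore-binding lipocalin, had 111, 64.6 and 64.6 FPKM in control against 190, 157 and 175 FPKM in diabetic libraries (1.16, limma adjusted p = 0.11). Lcn2 passed the adjusted threshold without control replicate 1. S100a9, a subunit of calprotectin that is also abundant in neutrophils, had 363 ± 116 and 577 ± 132 FPKM (0.69, adjusted p = 0.346), and it missed the study's thresholds without control replicate 1, control replicate 2 or diabetic replicate 1. Defb14, a beta-defensin, had 9.25 ± 2.48 and 3.57 ± 2.23 FPKM (-1.25, adjusted p = 0.264). The stress keratins Krt6a and Krt16, markers of activated keratinocytes, had differences of 0.11 (adjusted p = 0.568) and -0.18 (adjusted p = 0.697).

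Of 24 transcription factors of terminal differentiation, 23 passed the filter and 0 met either set of thresholds, with 12 positive and 11 negative differences and a median of 0.02. In the limma fit 5 had an unadjusted p under 0.05, a level met by 11.5% of all genes. Without control replicate 1 the study's thresholds were met by Grhl2, and without diabetic replicate 1 by Maf. Klf4, a factor required for the skin barrier and for corneal epithelial maturation, had 129 ± 11.9 FPKM in control against 142 ± 10 FPKM in diabetic libraries (0.14, limma adjusted p = 0.633). Grhl3, needed for barrier formation in the mouse, had a difference of 0.06 (adjusted p = 0.885).

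Markers of cell types that the collected tissue could hold were read beside the Lce3 values. The corneal keratin Krt12 had 3412 ± 341 FPKM in control against 4964 ± 1068 FPKM in diabetic libraries (0.52, limma adjusted p = 0.306). The basal keratin Krt14 had 4816 ± 415 and 4002 ± 124 FPKM (-0.26, adjusted p = 0.264). All 9 of 9 corneal epithelial markers were measured, 4 with positive and 5 with negative differences, and 0 met the study's thresholds. Their sums were 14003 to 14532 FPKM in control and 13462 to 15532 FPKM in diabetic libraries. The epidermal keratins Krt1 (0.503 and 0.547 FPKM) and Krt10 (3.75 and 3.4 FPKM) were low in both groups, with differences of 0.04 (adjusted p = 0.925) and -0.10 (adjusted p = 0.865). Of 12 epidermal markers 4 were measured, and their sums, dominated by Calml3, overlapped (1600.2 to 1822 FPKM in control, 1592 to 2008 FPKM in diabetic libraries). Of 12 hair and gland markers 5 were measured, summing to 0.521 to 0.670 and 0.348 to 0.669 FPKM, with Krt25, Krt27 and Krt28 under 0.1 FPKM. The part of skin or its appendages in the Lce3 values was not tested.

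Of 7 conjunctival and goblet cell markers 4 were measured, and their sums overlapped (1827 to 2140.4 and 1912 to 2395 FPKM). Krt4, a keratin of conjunctival and other mucosal epithelium, had 90.7, 140.2 and 117 FPKM in control against 192, 143 and 300.2 FPKM in diabetic libraries. Its libraries stood in nearly the same order as those of Lce3a, with diabetic replicate 3 highest, and its difference of 0.82 did not pass the limma test (adjusted p = 0.326). The goblet cell marker Agr2 had 3.89, 6.58 and 4.95 FPKM in control and 3.5, 1.5 and 3.6 FPKM in diabetic libraries, a difference in the other direction (-0.70, adjusted p = 0.382). Krt4 met the study's thresholds as higher and Agr2 as lower, while Krt13 (0.06, adjusted p = 0.859) and Krt19 (0.36, adjusted p = 0.306) met neither. The part of conjunctival cells in the Lce3 values was not tested.

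The summed markers of several other cell types differed between the groups without overlap. Among single genes, 6.68% were higher in all diabetic than in all control libraries. No such share was computed for sums, for lower values or for the sign of a difference. For neutrophils 12 of 13 markers were measured, all 12 had positive differences, and the sums were 359 to 691 FPKM in control against 724 to 1102 FPKM in diabetic libraries, highest in diabetic replicate 1. The sum was made up largely of S100a9 and S100a8, and each of these overlapped between the groups when taken singly. Csf3r, Cxcr2, Retnlg, Mmp8, Mmp9, Il1r2, Trem1 and Hdc overlapped as well. Stfa2, a stefin of the same list, had 16.7, 13.2 and 26.1 FPKM in control and 74.8, 92.6 and 193 FPKM in diabetic libraries. Its difference was 2.56 (limma adjusted p = 0.076). Stfa2l1 had 1.47, 1.16 and 1.25 FPKM in control and 41, 5.96 and 9.95 FPKM in diabetic libraries. Its difference was 2.69 (limma adjusted p = 0.168), and it did not overlap either. Stfa2 was highest in diabetic replicate 3, as were Lce3a, Lce3b, Lce3c and Lce3f. Every other measured neutrophil marker was highest in diabetic replicate 1. For lens 11 of 11 were measured, and the sums were 40.6 to 46.7 and 61.2 to 343 FPKM, highest in diabetic replicate 2, as was Cryaa, a lens crystallin, at 59.6 FPKM. Stromal markers (10 of 10) summed to 399 to 432 FPKM in control against 264 to 387 FPKM in diabetic libraries, and red blood cell markers (7 of 7) to 41.3 to 107 and 9.90 to 22.3 FPKM. The stromal sum was lowest in diabetic replicate 3, where the collagen gene Col1a1 had 21.8 FPKM against 57.4 to 66.1 FPKM in control. The alpha-globin gene Hba-a2 had a difference of -1.69 (adjusted p = 0.169). Of 8 T and NK cell markers 2 were measured, and their sums overlapped (0.641 to 2.16 and 1.42 to 4.03 FPKM). Diabetic replicates 1 and 3 were nearly equal, at 4 and 4.03 FPKM. The part of these cell types in the Lce3 values was not tested.

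The genes whose values over the 6 libraries were most like the mean Lce3 profile were found by the root mean square difference of centred log2(FPKM + 1), where the Lce3 profile itself has a root mean square of 0.63. The nearest was Usp18, which encodes the protease that removes ISG15 from proteins, at 0.11. Its FPKM was 17.0, 22.4 and 23.0 in control and 32.2, 38.5 and 60.1 in diabetic libraries, again highest in diabetic replicate 3. Kcnk12 (0.14), Trim30d (0.16), the clock gene Per1 (0.18) and Ifit3b, an interferon-induced gene (0.19), followed. Ifit3b had 59.6, 72.0 and 75.0 FPKM in control against 146, 162 and 239 FPKM in diabetic libraries. When profiles were centred within each group, which removes the difference between groups, Hspb2 (0.10), Usp18 (0.11), Ppp2r1b (0.11), Map2k3 (0.11) and Ifit3b (0.12) were nearest, against 0.32 for the Lce3 profile itself. Usp18 and Ifit3b were thus among the nearest 5 under both centrings. The Lce3 profile is an unweighted mean of 4 genes. Centred within groups, Lce3a alone stood at 0.02, 0.27 and -0.29 in control and at 0.01, -0.38 and 0.37 in diabetic libraries. Lce3a was lowest in control replicate 3 and diabetic replicate 2, where neither Usp18 nor Ifit3b was lowest. Likeness to Lce3a alone was not computed. These likenesses rest on 6 libraries and were chosen among all genes past the filter, so they are a description without a test.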

How the data were processed

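Polyadenylated RNA of 6 libraries was analysed, 3 control and 3 diabetic, grouped and numbered by the sample titles. The authors used a stranded kit and an Illumina NovaSeq, and the submitters' processing notes name FastQC, cutadapt, HISAT2, StringTie and GRCm38 without versions. The deposited values are FPKM per gene as computed by the authors and are not counts. Low values of 386 single-exon genes were within 2% of whole read steps in only 30.3% to 47.3% of cases, so reads were not recovered and depth is unknown. FPKM summed to 308757 to 331926 per library, and 14000 to 14116 genes were above 0.

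Of 14968 genes, 374 were at 0 throughout, and 12149 with a mean of at least 0.5 FPKM in 1 or both groups were kept. The group difference was fitted by limma 3.58.1 in R 4.3.3 to log2(FPKM + 1) (moderated variances with an intensity trend, two-sided, Benjamini-Hochberg over all genes kept, 4 residual and 3.65 prior degrees of freedom). A 1.5-fold change with an unadjusted limma p under 0.05 stands for the thresholds that the study gave. The steps were tested on simulated data. No pair of libraries shared a value above 0. Replicates were pools of mice, so p-values measure the spread between pools.

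The members and all gene lists were chosen with earlier results of these data known. Named are the Lce3 genes, members of the envelope, barrier-stress and transcription factor lists past a threshold (up to 4 a list by the smallest p), a set of fixed names (Ivl, Krt12, Krt1, Krt10, Tgm1, Asprv1 and Klf4 among them), measured genes within 200 kb, the 5 genes of nearest profile, and the leading marker by p of each cell type list that moved with the members. Sprr genes, Klk5, Grhl2, Maf, Krt6a, Krt16, Grhl3 and the markers Krt14, Krt13, Krt19, Agr2, S100a8, Calml3, Krt25, Krt27 and Krt28 lie outside this rule and were chosen after their values were seen. Coding sequences and RefSeq promoters of 300 bases were aligned with MAFFT 7.526. The coding sequences themselves are not reported here. Protein features were planned and not analysed here.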

Additional observations from a re-analysis of the deposited data

How the results depend on the processing

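All 79 values of the measured Lce3 genes under the alternatives kept a positive difference, and 73 moved by less than 1 SD of the replicates. The others came from the scale of low values. With a pseudocount of 0.1 the log2 difference was 3.36 for Lce3b, 0.72 for Lce3e and 1.30 for Lce3f, and the median of the 4 genes past the filter was 1.61. With a pseudocount of 0.5 Lce3b was at 1.73, and on TPM Lce3b was at 2.16 and Lce3f at 1.11. When each library was left out in turn, the difference ranged from 0.84 to 1.22 for Lce3a, 0.85 to 1.37 for Lce3b, 0.87 to 1.99 for Lce3c, 0.05 to 0.27 for Lce3e and 0.57 to 0.94 for Lce3f, the median from 0.85 to 1.28 and the ratio of the summed FPKM from 1.9 to 2.55. In these fits the lowest values of Lce3a, Lce3b, Lce3c, Lce3f and the ratio came without diabetic replicate 3. With library weights the difference was 0.7 for Lce3a, 0.96 for Lce3b, 1.41 for Lce3c and 0.71 for Lce3f, and the median was 0.84. The weighted value of Lce3a and the weighted median lay below their leave-one-out ranges.

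The number of genes past the adjusted threshold, 8, was 1 without a filter, 5 with quantile normalization, 3 without the intensity trend, 129 with library weights, and 1 to 66 when libraries were left out. The number past the thresholds of the study, 302, was 584 with a pseudocount of 0.1, 497 on TPM, and 258 to 469 when libraries were left out, of which 148 to 186 were higher. The cause was not tested. With the replicate number as a block 3 genes passed the adjusted threshold, and the same 4 Lce3 genes met the study's thresholds. Same-numbered libraries did not clearly deviate together (r = -0.198, 0.056 and -0.086 for numbers 1, 2 and 3). Differently numbered libraries had r from -0.227 to 0.291. With 3 libraries per group this check cannot exclude a pairing. The paper describes its screening as done on paired samples without naming the pairs. Depth is unknown, so values listed at 0 (Lce3b and Lce3e) carry no limit.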
